A study of Homo sapiens with 6 samples.

Results

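RNA levels are given for 9 genes of the netrin system in a human neuroblastoma line, namely the netrin receptors *UNC5A*, *UNC5B*, *UNC5C*, *UNC5D*, *DCC* and *NEO1* and the netrins *NTN1*, *NTN3* and *NTN4*. The genes were found by symbol among 60651 genes counted in every library, and the set was drawn up around *UNC5D*, which was selected on its lower level in the Tet libraries. The Tet against EtOH values of all 9 genes are therefore a description and carry no test. Total RNA depleted of ribosomal RNA was sequenced from 6 samples, 3 with titles naming ethanol (EtOH, the solvent control) and 3 with titles naming tetracycline (Tet), collected after 5 days. The descriptions of the cells conflicted. Titles and file headers named the *MYCN*-amplified line IMR-5/75 (written IMR575) and a tag spoke of a knockdown, while the protocol described SK-N-SH cells that carried a tetracycline-inducible *MYCN* construct and a tetracycline repressor and had been grown from single clones under G418 and blasticidin. Per the study's methods, *MYCN* was induced in SK-N-AS cells, and in IMR-5/75 cells it was silenced by an shRNA under tetracycline control. Per the labels the groups came from the same line and differed in the added agent, so the libraries are called by their label and no direction of *MYCN* change is assumed. A line grown from a single clone limits each group as a model, because all samples then share the traits of that clone.

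Netrins are secreted, laminin-related proteins that steer growing axons. DCC and its relative neogenin (NEO1) attract axons towards netrin-1, while the 4 UNC5 receptors turn this response into repulsion, alone or together with DCC. DCC, neogenin and the UNC5 receptors are also called dependence receptors, because they can signal cell death when no ligand is bound, and the gene of UNC5D, which also binds FLRT proteins, has been studied in neuroblastoma as a receptor tied to regression of the tumour.

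The 6 libraries held between 27933378 and 40498065 counts. *MYCN* had 158, 256 and 156 CPM (counts-per-million, scaled by library size and by TMM factors) in EtOH 1 to 3 and 196.6, 200.1 and 145.4 CPM in Tet 1 to 3, so the labels were not separated by *MYCN* itself (log2 fold change -0.07, SE 0.23, adjusted p = 0.956, edgeR). The first principal component held 44.7% of the variance and did not separate the labels, with EtOH 2 and Tet 2 at its high end. The second component did separate them, with EtOH libraries between -39.1 and -34.7 and Tet libraries between 26.4 and 48.1. The sympathetic neuroblast marker *GATA3* was high in EtOH and Tet (247 and 316 CPM), whereas *TH*, the first enzyme of catecholamine synthesis, had 0 counts in 5 of 6 libraries. Summed over 13 neuroblast markers, the level per exon length (TPM, transcripts-per-million) was 680 to 750 in EtOH and 781 to 963 in Tet, and 1 of the 10 tested genes, *DDC*, was called higher (0.242 and 2.84 CPM, adjusted p = 0.028, edgeR). Of those 10 genes, 7 were higher and 0 lower at an unadjusted p under 0.05, which 10.8% of all tested genes reached in either direction, and 7 had all Tet libraries above all EtOH libraries, against 9.2% of all genes. Over 6 fibroblast markers the sum was 33.5 to 39.2 TPM in EtOH and 19.6 to 25.9 in Tet, with *PDGFRA* called lower (96.5 and 49.3 CPM, adjusted p = 0.046, edgeR) and *COL1A2* at 0. *COL3A1* on the same list lay the other way (8.82 and 18.04 CPM, adjusted p = 0.14), without overlap, so most of the lower sum is that of *PDGFRA*. Mesenchymal and Schwann-like markers summed to 96.8 to 181 and 104 to 188 TPM with *S100B* at 0, and the immune and endothelial lists stayed below 1 TPM with *VWF* at 0. The part of these marker differences in the values below was not tested, and in bulk RNA fewer cells of a type and less RNA per cell cannot be told apart.

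Promoter windows, from 250 bases before to 50 after the start of a gene, were matched by symbol in RefSeq (GRCh38.p14) for 5 of the 9 genes, *UNC5A*, *UNC5C*, *DCC*, *NEO1* and *NTN4*. The windows are shown for the UNC5 receptor with most RNA, for the UNC5 receptor with least, and for the 2 starts of *NTN4*, the netrin with most RNA. All run 5′ to 3′ on the strand of the gene, with the GC box GGGCGG or its reverse complement CCGCCC in capitals.
UNC5C chr4:95548924-95549223 minus strand: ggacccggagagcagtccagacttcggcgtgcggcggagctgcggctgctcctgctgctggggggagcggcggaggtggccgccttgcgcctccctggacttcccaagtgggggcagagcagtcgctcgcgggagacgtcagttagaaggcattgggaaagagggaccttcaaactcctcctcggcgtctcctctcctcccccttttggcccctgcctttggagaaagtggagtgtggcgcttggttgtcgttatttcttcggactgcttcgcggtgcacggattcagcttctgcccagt
UNC5A chr5:176810309-176810608 plus strand: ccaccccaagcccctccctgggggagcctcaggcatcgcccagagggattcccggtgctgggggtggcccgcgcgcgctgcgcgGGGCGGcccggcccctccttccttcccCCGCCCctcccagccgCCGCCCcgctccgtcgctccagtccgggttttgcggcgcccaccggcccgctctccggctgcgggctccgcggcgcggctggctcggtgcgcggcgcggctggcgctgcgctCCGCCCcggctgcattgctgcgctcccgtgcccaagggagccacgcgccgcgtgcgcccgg
NTN4 chr12:95791106-95791405 minus strand: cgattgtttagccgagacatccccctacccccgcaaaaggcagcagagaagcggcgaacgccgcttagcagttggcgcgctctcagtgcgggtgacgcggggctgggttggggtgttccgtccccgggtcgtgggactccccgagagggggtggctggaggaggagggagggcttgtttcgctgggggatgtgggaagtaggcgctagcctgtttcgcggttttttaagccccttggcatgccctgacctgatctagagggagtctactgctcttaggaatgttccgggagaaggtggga
NTN4 chr12:95790715-95791014 minus strand: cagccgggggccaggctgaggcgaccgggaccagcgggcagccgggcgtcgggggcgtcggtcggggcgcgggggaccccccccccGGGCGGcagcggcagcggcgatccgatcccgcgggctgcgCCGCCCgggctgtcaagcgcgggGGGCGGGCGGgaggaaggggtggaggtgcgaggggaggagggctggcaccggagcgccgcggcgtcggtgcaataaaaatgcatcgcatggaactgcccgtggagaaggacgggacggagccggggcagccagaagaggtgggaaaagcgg
The *UNC5A* window held 4 GC boxes, 44 CpG and 80.7% GC, while the *UNC5C* window held 0 GC boxes, 22 CpG and 63.7% GC. The upstream *NTN4* window had 0 GC boxes and 21 CpG, and the downstream window had 4 GC boxes, of which 2 overlapped each other, and 40 CpG. Over all 35116 RefSeq windows of the same length the medians were 14 CpG and 58.7% GC, and 44.95% held a GC box on either strand. The E-box CACGTG, the letters bound by MYC family proteins, was in none of the 6 windows of the 5 genes, against 7.26% of all windows, and the letters TATAAA were in none either, against 11.5% of all windows, both strands read. These are matches of letters only and say nothing of binding.

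The genes differ widely in length and base composition, which bears on how many reads each collects. In GRCh38 coordinates, *UNC5D* (ENSG00000156687.11) lay on the plus strand of chr8:35235475-35796550 and covered 561.1 kb, with exons of 42.1% GC. *UNC5C* (ENSG00000182168.15) covered 386.7 kb on the minus strand of chr4:95162504-95549206 (43.6% GC). *UNC5A* (ENSG00000113763.12) lay on the plus strand of chr5:176810519-176880898 and *UNC5B* (ENSG00000107731.12) on that of chr10:71212570-71302864, with GC-rich exons of 64.3% and 60.2%. *DCC* (ENSG00000187323.12), the longest of the genes, covered 1195.7 kb of chr18:52340197-53535903 on the plus strand (42.2% GC), and *NEO1* (ENSG00000067141.17) lay on the plus strand of chr15:73051710-73305205 (49.1% GC). Among the netrins, *NTN3* (ENSG00000162068.2) filled 2.849 kb of chr16:2471297-2474145 with the most GC-rich exons of the set (72.6%), *NTN1* (ENSG00000065320.9) lay at chr17:9021510-9244000 (61.8% GC), both on the plus strand, and *NTN4* (ENSG00000074527.13) lay on the minus strand of chr12:95657807-95791189 (47.5% GC). Counting did not use strand and split reads between overlapping genes. Few exon bases were open to that, namely 0.695% of *UNC5A* shared with *HK3*, 0.730% of *UNC5C* shared with *UNC5C-AS1* and 1.45% of *DCC* shared with *LINC01917*, all 3 antisense, and 0 in *UNC5D*.

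By level per length, neogenin and UNC5C made up most of the receptor RNA, and netrin-1 was almost absent. Averaged over the 6 libraries, *NEO1* stood at 24.3 ± 5.29 TPM (SD, n = 6) and *UNC5C* at 15.7 ± 6.02 TPM, at the 77.3 and 69.3 percentile of all tested genes. *NEO1* was above *UNC5C* in 4 of 6 libraries, so the spread of these neighbours overlapped. *UNC5C* exceeded *NTN4* (4.60 ± 0.836 TPM) in 6 of 6. The next places, *NTN4* over *UNC5B* (2.91 ± 1.12 TPM) and *UNC5D* (1.94 ± 1.47 TPM) over *NTN3* (0.885 ± 0.757 TPM), each held in 4 of 6 libraries. *UNC5B* exceeded *UNC5D* in 3 of 6, the Tet libraries. *UNC5A* (0.263 ± 0.264 TPM) and *DCC* (0.262 ± 0.114 TPM) could not be ordered, and *NTN1* was last at 0.0350 ± 0.0284 TPM. The order by median was the same.

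Among the UNC5 receptors, UNC5D was the lower one in Tet, and UNC5B and UNC5C were the higher ones. *UNC5D* had 13.9, 11.6 and 12.5 CPM in EtOH 1 to 3 and 3.69, 1.35 and 2.34 CPM in Tet 1 to 3, from 322 to 499 counts against 48 to 104. Every Tet library was below every EtOH library. The means were 12.7 ± 1.17 and 2.46 ± 1.17 CPM (SD, n = 3 each), a ratio EtOH over Tet of 5.15 and a log2 fold change of -2.37 (SE 0.35, 95% interval -3.17 to -1.57), the 25th lowest of 22443 tested genes. Because the gene was selected on this difference, its size is no evidence for it. The spread in relative terms was wider in Tet, with a coefficient of variation of 47.6% against 9.22%.

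*UNC5B*, a receptor that is also found on endothelial cells, had 4.69, 5.70 and 3.901 CPM in EtOH and 9.78, 8.41 and 11.8 CPM in Tet. All Tet libraries were above all EtOH libraries, and the means of 4.76 ± 0.901 and 9.997 ± 1.71 CPM stood in a ratio of 2.10. The log2 fold change was 1.07 (SE 0.24, 95% interval 0.52 to 1.63). *UNC5C*, the UNC5 receptor with most RNA, had 39.6, 58.8 and 37.0 CPM in EtOH and 70.3, 100.7 and 63.1 CPM in Tet. The groups again did not overlap, but EtOH 2 was only a little below Tet 3. Its means were 45.1 ± 11.9 and 78.0 ± 19.9 CPM, a log2 fold change of 0.79 (SE 0.24, 95% interval 0.24 to 1.34).

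*UNC5A* was near the detection limit, with 10, 10 and 6 counts in EtOH and 1, 13 and 54.5 counts in Tet. That is 0.279, 0.361 and 0.198 CPM against 0.0354, 0.367 and 1.36 CPM, where 3 counts equal 0.0755 to 0.108 CPM. Tet 1 was the lowest library of all and Tet 3 the highest, so the groups overlapped. The fitted log2 fold change of 1.10 (SE 0.92, 95% interval -1.01 to 3.20) left both directions possible and became -0.41 without Tet 3. Tet 3 also stood apart in base composition, since 1194 genes with exons of at least 60% GC lay by a median of 1.03 above their own mean on the log2 scale there and between -0.33 and 0.08 in the other 5 libraries. The exons of *UNC5A* and *UNC5B* fall in this GC class. After each library was centred within bins of GC content, a correction chosen after seeing the data, the log2 fold change was 0.39 for *UNC5A* and 0.74 for *UNC5B*.

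**Figure D1:**
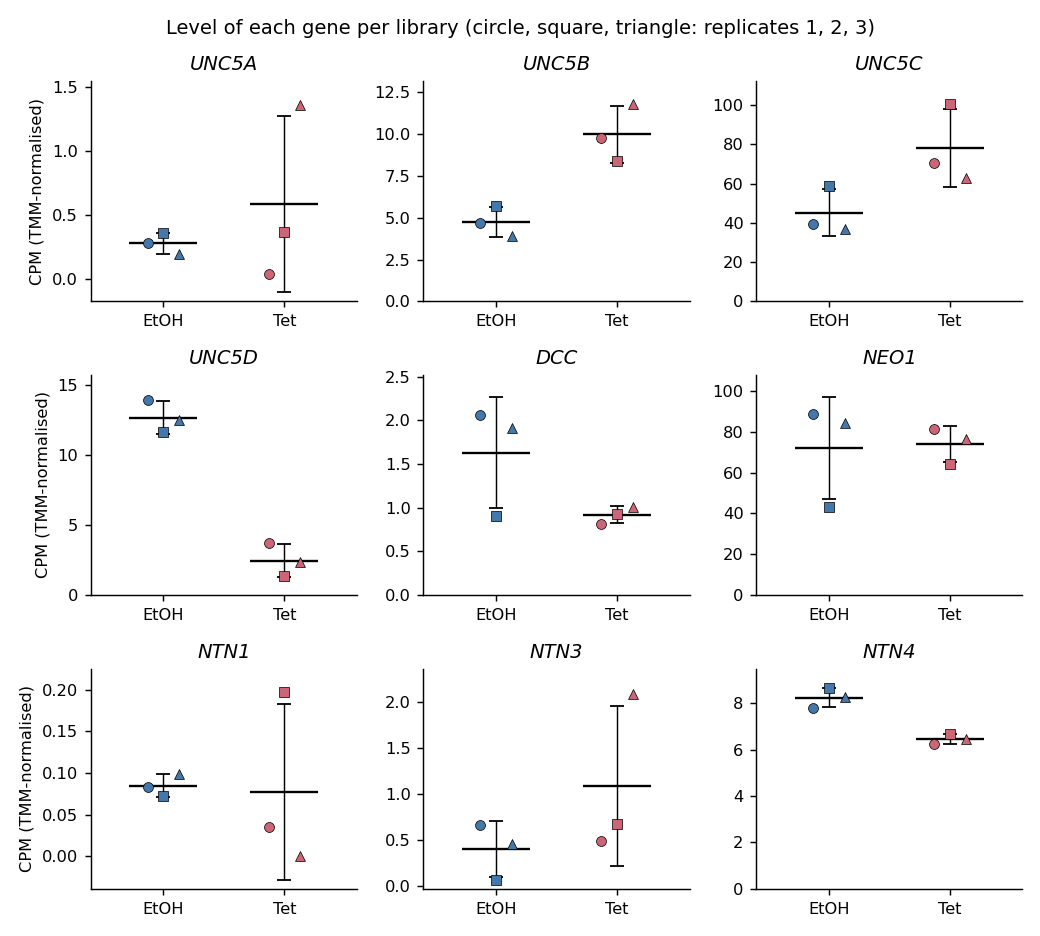
Level of each of the 9 genes in CPM (y axis, own scale per panel) in the 3 EtOH and 3 Tet libraries, with the mean and SD beside the points and the replicate given by the symbol. The *UNC5D* panel has its Tet points between 1.35 and 3.69 CPM, below EtOH points of 11.6 to 13.9, while *UNC5B* and *UNC5C* have all Tet points above the EtOH points, and 1 Tet library stands far above the rest for *UNC5A* and *NTN3*.

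The DCC family receptors had no such split. *DCC*, which attracts axons towards netrin-1, had 2.06, 0.902 and 1.92 CPM in EtOH and 0.815, 0.931 and 1.01 CPM in Tet. EtOH 2 lay within the Tet range, and the other 2 EtOH libraries were about 2 CPM. The log2 fold change was -0.83 (SE 0.40, 95% interval -1.74 to 0.09), with means of 1.63 ± 0.633 and 0.918 ± 0.0964 CPM. *NEO1*, the receptor for repulsive guidance molecules as well as netrins, had 88.9, 43.3 and 84.2 CPM in EtOH and 81.2, 64.0 and 76.4 CPM in Tet. Replicate 2 was the lowest library of each group. The means were 72.1 ± 25.1 and 73.9 ± 8.86 CPM and the log2 fold change was 0.03 (SE 0.26), with a 95% interval of -0.57 to 0.63 that includes changes of sizeable extent either way.

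Of the netrins, only netrin-4, a basement membrane netrin that binds laminins, was present at a level that allowed a precise value. *NTN4* had 7.81, 8.66 and 8.26 CPM in EtOH and 6.24, 6.66 and 6.44 CPM in Tet. The Tet libraries were all below the EtOH libraries by a small margin, with means of 8.24 ± 0.423 and 6.45 ± 0.209 CPM. Its log2 fold change was -0.35 (SE 0.20) with a 95% interval of -0.80 to 0.09. *NTN3*, a netrin of sensory ganglia and nerve, had 0.670, 0.0721 and 0.463 CPM in EtOH and 0.496, 0.677 and 2.09 CPM in Tet. The groups overlapped and the value rested on Tet 3, the library with GC-rich genes shifted up. Its log2 fold change of 1.42 (SE 0.77, 95% interval -0.34 to 3.18) became 0.53 without Tet 3 and 0.89 after the GC correction. *NTN1*, the ligand of DCC and the UNC5 receptors in the developing spinal cord, had 3, 2 and 3 counts in EtOH and 1, 7 and 0 in Tet. With 16 counts in all it did not pass the filter on low counts, a library at 0 allows up to 0.0755 CPM in Tet 3, and no fold is given.

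**Figure D2:**
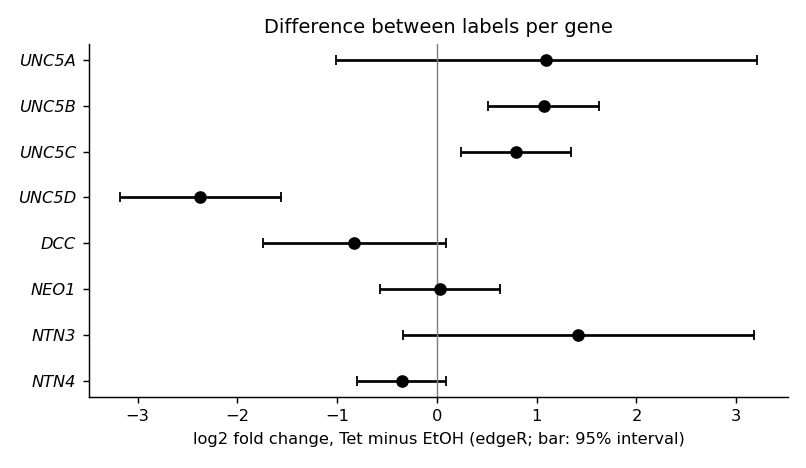
log2 fold change, Tet minus EtOH (x axis), of the 8 genes that passed the filter on low counts, with the 95% interval from edgeR as a bar. *UNC5D* lies at -2.37, *UNC5B* at 1.07 and *UNC5C* at 0.79 and the bars of *UNC5A* and *NTN3*, the genes with fewest counts among them, are the longest.

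Per length, the make-up of UNC5 receptor RNA differed between the labels mainly in the UNC5D share. *UNC5D* made up 22.4%, 14.4% and 22.1% of the summed UNC5 TPM in EtOH 1 to 3 and 4.08%, 1.15% and 2.65% in Tet 1 to 3, without overlap. The mean shares were 19.6 ± 4.56% and 2.63 ± 1.46% (SD, n = 3 each). *UNC5C* held 64.5%, 73.4% and 66.2% in EtOH and 78.7%, 86.7% and 72.3% in Tet, where Tet 3 was below EtOH 2. *UNC5B* held 11.9%, 11.1% and 10.9% in EtOH and 17.1%, 11.3% and 21.1% in Tet, and its lowest Tet share lay within the EtOH range. *UNC5A* never exceeded 3.89%. In order of TPM within a group, *UNC5D* (3.26 ± 0.185 TPM) ranked 4 of the 9 genes in EtOH, above *UNC5B* (1.95 ± 0.464 TPM), and ranked 6 in Tet (0.611 ± 0.319 TPM), below *UNC5B* (3.86 ± 0.456 TPM) and *NTN3* (1.27 ± 0.922 TPM). Shares of one sum are tied to each other, so a lower share of *UNC5D* raises the others.

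**Figure D3:**
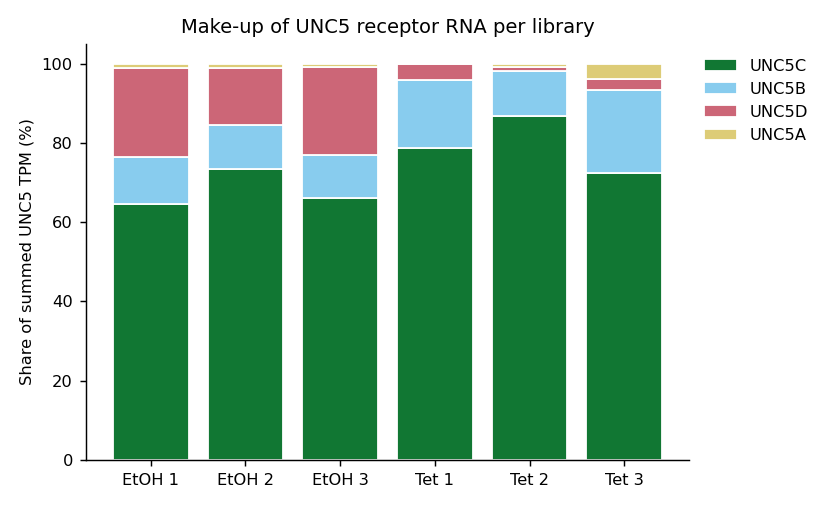
Share of the summed UNC5 receptor TPM (y axis, %) held by *UNC5A*, *UNC5B*, *UNC5C* and *UNC5D* in each of the 6 libraries (bars, stacked to the whole). *UNC5C* holds most of every bar, between 64.5% and 86.7%, and the *UNC5D* segment shrinks from 14.4% or more in EtOH to 4.08% or less in Tet.

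Receptor sums were not lower in Tet. The 4 UNC5 receptors together had 15.5, 22.1 and 14.2 TPM in EtOH and 23.6, 29.6 and 19.9 TPM in Tet, 17.3 ± 4.25 against 24.4 ± 4.87, with Tet 3 below EtOH 2. All 6 receptors together had 42.1 ± 3.70 TPM in EtOH and 48.7 ± 4.95 TPM in Tet. The 3 netrins summed to 5.82 ± 0.166 TPM in EtOH and 5.23 ± 0.644 TPM in Tet, most of it *NTN4*. Receptor RNA per netrin RNA was 7.98, 6.34 and 7.43 in EtOH and 11.1, 10.1 and 7.25 in Tet, where Tet 3 lay inside the EtOH range. Both the sums and this ratio therefore overlapped between the labels.

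Within the groups the genes varied to very different degrees. The SD around the group means, on the log2 scale, was 0.06 for *NTN4*, below that of all but 0.87% of the tested genes, against a median of 0.39 over all of them. It was 1.40 for *UNC5A* and 1.17 for *NTN3*, at the 99.4 and 97.8 percentile, both of them with few counts and GC-rich exons. *UNC5D* (0.51), *DCC* (0.46), *NEO1* (0.43), *UNC5C* (0.36) and *UNC5B* (0.26) lay nearer to the median. For 4 of the genes EtOH 2 lay farthest of the EtOH libraries from their mean by a clear margin, by -0.67 for *NEO1*, -0.73 for *DCC*, -1.48 for *NTN3* and 0.41 for *UNC5C*. For *UNC5D* and *NTN4* EtOH 1 lay farther out, and for *UNC5A* EtOH 3 did, while the widest departures of all were those of *UNC5A* in Tet 1 (-2.01) and Tet 3 (1.87). Tet 2 departed the same way as EtOH 2 for *UNC5C* (0.40), *NEO1* (-0.20) and *NTN3* (-0.38), but not for *DCC* (0.02). EtOH 2 and Tet 2 were also the libraries at the high end of the first principal component.

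Of the 9 genes, 8 passed the filter on low counts and 1, *UNC5D*, was called at an adjusted p under 0.05, where 0.236% of all 22443 tested genes were called (33 higher and 20 lower). At an unadjusted p under 0.05 there were 3, *UNC5B*, *UNC5C* and *UNC5D*, where 10.8% of all genes passed. Groups did not overlap for *UNC5B* and *UNC5C* with Tet higher, against a background of 9.2%, and for *UNC5D* and *NTN4* with Tet lower, against 8.28%. The set was chosen from this contrast, so nothing is read from these counts. The median log2 fold change was 0.41 over the 8 genes and -0.01 over all genes. Leaving out EtOH 2 gave calls for *UNC5B*, *UNC5C* and *UNC5D*, with 361 genes called higher and 331 lower over all genes. Leaving out any other single library gave 0 calls among the 9 genes, *UNC5D* included. In those refits at most 1 gene was called higher and at most 1 lower over all genes, so the 0 calls were not particular to the 9 genes. The log2 fold change of *UNC5D* lay between -2.78 (without Tet 1) and -2.07 (without Tet 2) over these refits.

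**Figure D4:**
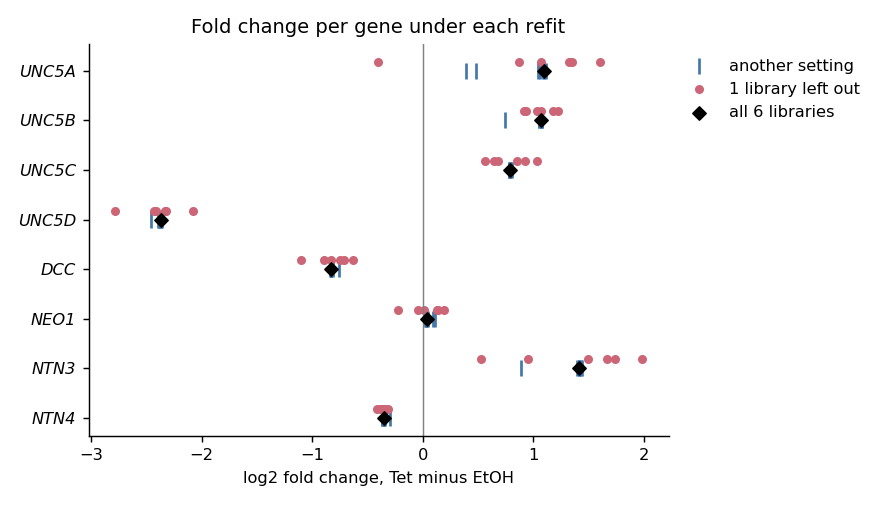
log2 fold change, Tet minus EtOH (x axis), of each gene with all 6 libraries (diamonds), with 1 library left out (circles) and under another scaling, filter, model or correction (bars). *UNC5D* stays between -2.78 and -2.07 and *UNC5C* between 0.57 and 1.03 in every refit drawn, whereas *UNC5A* ranges from -0.41 to 1.602 and *NEO1* lies on both sides of 0.

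Around these genes, 4 lists of 62 ligands, partners and signalling proteins held 53 tested genes, and 0 of them were called by edgeR in either direction, while 6 were higher and 3 lower at an unadjusted p under 0.05 (10.8% of all genes) and 5 were called by DESeq2 (2.23% of all genes). Their median log2 fold change was 0.13. The strongest values were in the list of other ligands, where 7 of 11 genes were tested and the median was 0.88. This list was not limited to ligands of the receptors above, since it also held the netrin G genes *NTNG1* and *NTNG2*. Its median was the value of *FLRT1* (SE 0.66, adjusted p = 0.71, edgeR), which had 9.5, 10 and 4 counts in EtOH and 6.5, 12.5 and 33.5 in Tet. *NTNG2* also had few counts and was highest in Tet 3 (40 counts). *DRAXIN*, a secreted protein that binds DCC and netrin, had 0.809, 1.91 and 0.760 CPM in EtOH and 5.42, 16.02 and 7.93 CPM in Tet (log2 fold change 3.09, SE 0.52, adjusted p = 0.066, edgeR). *NTNG1*, a membrane-anchored netrin G, had 4.46, 8.66 and 4.96 CPM in EtOH and 21.2, 22.9 and 17.7 CPM in Tet (log2 fold change 1.78, SE 0.28, adjusted p = 0.059). *LRRC4C*, the partner of netrin G1 on facing cells, had 1.16 ± 0.681 and 5.02 ± 1.503 CPM (log2 fold change 2.11, SE 0.48, adjusted p = 0.14). In all 3 the lowest Tet library was above the highest EtOH library, although none passed the threshold. They were named for their large values, and such separation was not rare. Of the 53 tested genes in the 4 lists, 9 had all Tet libraries higher and 6 all Tet libraries lower. Over all genes the shares were 9.2% and 8.28%.

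The FLRT proteins, membrane ligands that UNC5 receptors bind, differed among themselves. *FLRT2*, a ligand of UNC5D that was picked out after its values were seen, had 44.6 ± 1.99 CPM in EtOH and 25.7 ± 1.797 CPM in Tet (log2 fold change -0.79, SE 0.15, adjusted p = 0.082, edgeR). *FLRT3* had 55.8 ± 9.16 and 92.8 ± 11.5 CPM (log2 fold change 0.74, SE 0.18, adjusted p = 0.17). *RGMB*, a neogenin ligand, had 43.5 ± 5.28 and 54.1 ± 1.92 CPM (log2 fold change 0.32, adjusted p = 0.52). The latrophilins, which bind FLRT proteins, had log2 fold changes of 1.02 (*ADGRL1*), -0.23 (*ADGRL2*) and -0.04 (*ADGRL3*), with adjusted p of 0.58 or more. The value of *ADGRL1* (SE 0.56) rested on Tet 3, with 2.44 CPM there and at most 0.837 CPM elsewhere. None of these genes passed the threshold.

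Of 27 genes that carry the signal to the cytoskeleton, 25 were tested, with a median log2 fold change of 0.13. *MAP1B*, a microtubule-binding protein phosphorylated in the response to netrin-1, had 2143 ± 133 and 3374 ± 239 CPM (log2 fold change 0.65, SE 0.15, adjusted p = 0.14, edgeR), with all Tet libraries higher. *TUBB3*, a neuronal tubulin, had 7.58 CPM in Tet 3 and at most 2.09 CPM elsewhere (log2 fold change 1.24, SE 0.58, adjusted p = 0.51). The kinase gene *SRC* had 1.03, 0.974 and 0.694 CPM in EtOH and 1.35, 1.04 and 2.54 CPM in Tet, highest in Tet 3. Its log2 fold change was 0.87 (SE 0.43, adjusted p = 0.53, edgeR), and that of the actin regulator gene *ENAH* was 0.24 (SE 0.27). All 12 genes of death signalling by unbound receptors were tested, 0 of them were called by edgeR or DESeq2 or reached an unadjusted p under 0.05, and 0 had groups without overlap. Over all genes the shares were 10.8% at that p, and 8.28% (Tet lower) and 9.2% (Tet higher) without overlap, so 0 of 12 is near the background. Their log2 fold changes lay between -0.33 and 0.72 with a median of 0.11, and included 0.72 for *E2F1*, a cell cycle transcription factor (SE 0.55, adjusted p = 0.72, edgeR), 0.13 for *PPP2CA* and -0.17 for *CIP2A*. The SEs of these genes leave changes of moderate size possible.

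**Figure D5:**
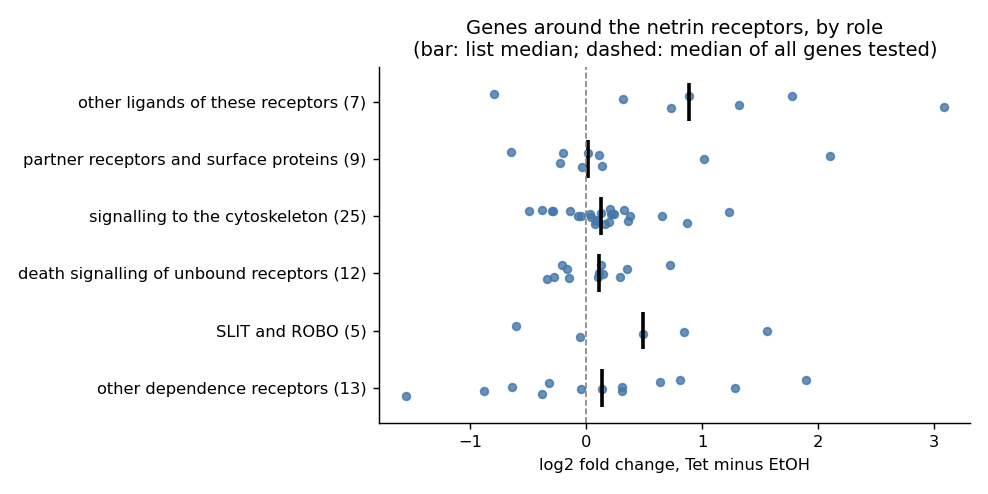
log2 fold change, Tet minus EtOH (x axis), of each tested gene in the 6 lists around the netrin receptors (rows, with the number of genes tested), with the list median as a bar and the median of all tested genes dashed at -0.01. The list of other ligands has the median farthest to the right among the 4 pathway lists, at 0.88, which is the value of *FLRT1*, a gene with few counts. The death signalling genes crowd between -0.33 and 0.72.

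In the parallel guidance system of SLIT ligands and ROBO receptors, 5 of 7 genes were tested and 0 were called by edgeR, with 3 higher and 0 lower at an unadjusted p under 0.05 (10.8% of all genes) and 1 called by DESeq2, *ROBO2* (2.23% of all genes). *ROBO2* had 41.8 ± 5.77 and 75.2 ± 1.97 CPM (log2 fold change 0.85, SE 0.16, adjusted p = 0.082, edgeR), *SLIT2* 34.4 ± 2.44 and 48.3 ± 2.28 CPM (log2 fold change 0.49, adjusted p = 0.25), *SLIT3* a log2 fold change of 1.56 (SE 0.65, adjusted p = 0.44) and *ROBO1* one of -0.05. Of 16 other genes described as dependence receptors, 13 were tested and 0 were called by edgeR, with 2 higher and 3 lower at an unadjusted p under 0.05 and 3 called by DESeq2, beside the same shares of all genes. *NTRK3*, the receptor of neurotrophin-3, had 0.555 ± 0.113 and 2.07 ± 0.268 CPM (log2 fold change 1.90, SE 0.35, adjusted p = 0.081, edgeR). *EPHA4*, an ephrin receptor, had 8.78 ± 2.42 and 2.99 ± 0.781 CPM (log2 fold change -1.56, SE 0.31, adjusted p = 0.10). *KIT*, the stem cell factor receptor, had 52.5 ± 2.59 and 33.7 ± 2.58 CPM (log2 fold change -0.64, SE 0.15, adjusted p = 0.14), and *IGF1R* differed by -0.05 on the same scale. The list thus held values in both directions, with a median of 0.14 and none past the threshold.

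The genes whose log2 CPM tracked *UNC5D* most closely over the 6 libraries, among 10088 genes with a mean of at least 5 CPM, were *MIEF1* (Pearson r = 0.998), *NCKAP5* (0.995), *FRRS1* (0.994), *GUCY1B1* (0.992) and the small nucleolar RNA *SNORD22* (0.991). Their changes were far smaller than that of *UNC5D*, from -0.28 for *MIEF1* to -0.96 for *GUCY1B1* on the log2 scale. For *NEO1*, the gene with most RNA, they included ENSG00000256591 (0.999), *BBS2* (0.998), *RNFT2* (0.997) and *ASH1L* (0.994), with log2 fold changes from -0.01 (*BBS2*) to 0.06 (*RNFT2*). The coefficients rest on 6 points that share libraries and labels and were the highest of many, and they are given without a test.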

How the data were processed

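Each of the 6 libraries had a table of estimated counts, which the authors deposited without scaling for depth or length. Per the file headers, trimmed reads were aligned with STAR and unique alignments counted over exons with featureCounts 1.6.4, sharing a read pair among overlapping genes without use of strand. The study's methods name version 1.5.1 and other options, strand included. The headers were followed here. The 92 spike-in sequences had 0 counts. The planned test had assumed whole counts, so values were rounded for the fit.

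Libraries were grouped by title. Tet was compared with EtOH by edgeR 4.0.16 (quasi-likelihood test, TMM factors, filterByExpr, R 4.3.3), with Benjamini-Hochberg adjustment over 22443 genes and a threshold of 0.05. The 95% intervals are those of the fitted log2 fold change. CPM used TMM-scaled library sizes, and TPM used the exon length in the files. DESeq2 1.42.0, other scalings and filters, a replicate block and leaving out each library were alternatives. A correction for exon GC content was added after seeing the data. Floors of 3 counts cover counting error only. With 27933378 to 40498065 counts per library, counting error is small for genes above a few CPM. The study's methods give 3 biological replicates as the rule for cell experiments, but the labels do not say that these samples were separate cultures, so p-values measure only the spread between these samples, which may be technical.

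The 9 genes and all lists were chosen with earlier results of these data known. Named genes were all 9, and in each list every gene past the threshold, the 2 with the largest absolute log2 fold change and the 2 with the highest TPM. Other names were chosen after their values were seen. A few genes that this rule names, or that stand in a list, are not reported here. The scripts were tested on simulated data with 200 changed genes.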

Additional observations from a re-analysis of the deposited data

How the results depend on the processing

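Directions of *UNC5B*, *UNC5C*, *UNC5D*, *DCC*, *NTN3* and *NTN4* held under every alternative run, with log2 fold changes of 0.73 to 1.22, 0.57 to 1.03, -2.78 to -1.42, -1.11 to -0.17, 0.53 to 1.98 and -0.41 to -0.30. *UNC5A* (-0.41 to 1.602) and *NEO1* (-0.22 to 0.19) changed sign. The *UNC5D* value of -1.42, that of 0.73 for *UNC5B* and that of -0.17 for *DCC* came from log2(TPM + 1), which shrinks low genes by its construction. The number of calls was unstable. Against 33 genes higher and 20 lower, RLE size factors gave 13 lower, no filter on low counts 185 and 117, DESeq2 290 and 209, the GC correction 77 and 50, and leaving out 1 library 0 to 361 higher and 0 to 331 lower. Of the 9 genes, 0 were called with at least 10 counts required in every library, where 26 were higher and 17 lower over all genes. There were 2 by DESeq2 and 0 to 3 when 1 library was left out. In the 4 pathway lists 3 were called without the filter, 5 by DESeq2, 1 (*NTNG1*) after the GC correction and 0 to 5 with 1 library left out. For SLIT and ROBO genes these were 1 without the filter, 1 by DESeq2 and 0 to 2, and for the other dependence receptors 2, 3 and 0 to 2. With 1 library left out, the upper end of each of these ranges came without EtOH 2, where 361 genes were higher and 331 lower. Without any other library at most 1 gene was called higher and at most 1 lower over all genes. Where the cause of a change is not given, the cause was not tested.

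EtOH and Tet libraries share replicate numbers, and departures from the group mean correlated between libraries of the same number at 0.0603, 0.510 and 0.219. Not every library correlated best with its own number, so the number was taken as a name. EtOH 2 and Tet 2 did correlate best with each other, and what they share was left in the main fit. A fit with a replicate block called 421 genes higher and 254 lower, 3 of the 9 genes (*UNC5B*, *UNC5C* and *UNC5D*), 6 in the pathway lists, 2 of SLIT and ROBO and 4 of the other dependence receptors. Depth limited *UNC5A*, *NTN1*, *NTN3* and *DCC*, which had between 16 and 253 counts over the 6 libraries.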
